A study of Mus musculus with 14 samples.

Results

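Catalase and the superoxide dismutases are the enzymes that clear superoxide and hydrogen peroxide without an added electron donor, and the 4 mouse genes Cat, Sod1, Sod2 and Sod3 were followed here through every ovary and uterus library of the series. They were taken by symbol, matched once each, and are 4 of the 21853 genes in the deposited expression table. Superoxide dismutases turn superoxide into hydrogen peroxide and oxygen, and catalase turns hydrogen peroxide into water and oxygen. SOD1 is the copper and zinc enzyme of the cytosol, SOD2 the manganese enzyme of the mitochondrial matrix, and SOD3 a secreted copper and zinc enzyme that binds the extracellular matrix, while catalase works inside peroxisomes. In the ovary, cholesterol side-chain cleavage in the mitochondria of steroid-making cells is a known source of superoxide.

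RNA sequencing had been carried out on ovary and uterus tissue of female C57BL/6J mice, which gave 14 libraries in 4 groups. The mice were 28 weeks old when divided into groups, and their age at tissue collection is not stated. The 'old control' (OC) group held 3 mice that received normal saline. The 'old treatment' (OT) group held 4 mice that received conditioned medium of human amniotic membrane-derived mesenchymal stem cells (AMSC-CM), a culture supernatant mixed from 3 donors and concentrated from 20 to 2 mL. The AMSC-CM was injected 6 times through the tail vein at intervals of 4 days, the saline was also given intravenously, and a single dose was 1 µL per g of body weight. Both groups had first been given pregnant mare serum gonadotropin (10 IU) and, 48 h later, human chorionic gonadotropin (10 IU) for cycle synchronization. Values are FPKM, that is sequenced fragments scaled to the length of the transcript and to the mapped fragments of the library, so that genes can be compared per length, and the depth of each library is unknown. Fold changes were computed on log2(FPKM + 0.1), which understates the change of low genes. The cutoffs of the study, a 2-fold change in either direction together with an unadjusted p up to 0.05, were applied here to limma fits of the genes that averaged 0.5 FPKM or more in the tissue. All 4 genes met that minimum in both tissues.

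The tissue labels were checked against marker lists. All 10 ovarian genes were higher in ovary than in uterus libraries and 7 of 8 uterine genes were higher in uterus libraries (adjusted p by limma under 0.05 in each case). The uterine markers were uneven between ovaries. Hoxa10, a uterine position gene, ranged from 0.572 FPKM in the OT1 ovary to 53.4 FPKM in the OC2 ovary. The 8 uterine genes summed to 65.4 FPKM in the OT1 ovary and 181.4 FPKM in the OC2 ovary. Which cells these transcripts came from was not tested. The OT1 uterus stood apart from the other uteruses, with a total of 577494 FPKM against 425875 to 471907 FPKM in the other 6. For the 4 genes, the differences that it moves are given with and without it below. Ovary and uterus of a shared label such as OC1 were read as organs of 1 mouse, which the labels imply but do not state. The p-values set differences between groups against the spread between these libraries, which come from 3 OC and 4 OT mice.

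The start regions are shown for Cat, which passed the cutoffs in the uterus as described below, and for Sod1 and Sod2, which did not. No start site was found for Sod3, the other gene that passed. The windows therefore cannot compare genes that passed with genes that did not. RefSeq start sites (GRCm38.p6, the same assembly as mm10) were found for 3 of the 4 genes, and the bases from -250 to -11 relative to the start are printed 5′ to 3′ on the strand of the gene. Cat lies on chromosome 2 from 103453849 to 103485160 on the minus strand, with up to 13 exons in a coding transcript, and its window is chr2:103485164-103485403. Sod1 lies on chromosome 16 from 90220754 to 90226329 on the plus strand, with 5 exons, and its window is chr16:90220512-90220751. Sod2 lies on chromosome 17 from 13006846 to 13040063 on the plus strand, with up to 5 exons in a coding transcript, and its window is chr17:13007589-13007828, of which 12 bases fall in an annotated exon. Sod3 lies on chromosome 5 from 52363791 to 52371418 on the plus strand, with 2 exons. Capitals mark matches on either strand to the CCAAT box, to the GC box with the letters GGGCGG, and to the TATA box as spelled TATAAA.
Cat: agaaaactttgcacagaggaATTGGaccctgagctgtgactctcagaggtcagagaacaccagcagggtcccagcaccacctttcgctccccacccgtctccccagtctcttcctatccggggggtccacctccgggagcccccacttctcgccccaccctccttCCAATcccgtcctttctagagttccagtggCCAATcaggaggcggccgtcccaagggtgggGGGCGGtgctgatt
Sod1: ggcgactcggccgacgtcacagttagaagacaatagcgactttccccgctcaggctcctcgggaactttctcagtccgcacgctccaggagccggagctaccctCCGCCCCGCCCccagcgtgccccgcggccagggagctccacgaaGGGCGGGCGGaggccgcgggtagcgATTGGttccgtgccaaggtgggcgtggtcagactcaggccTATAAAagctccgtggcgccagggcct
Sod2: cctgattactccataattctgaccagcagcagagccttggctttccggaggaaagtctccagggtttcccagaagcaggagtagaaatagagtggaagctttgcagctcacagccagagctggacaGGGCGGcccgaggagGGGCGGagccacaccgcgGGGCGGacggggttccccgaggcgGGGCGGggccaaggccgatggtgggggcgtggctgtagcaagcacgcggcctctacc
The Cat window held 3 CCAAT and 1 GGGCGG, the Sod1 window 1 CCAAT, 4 GGGCGG and 1 TATAAA, and the Sod2 window 4 GGGCGG with neither of the others. In Sod1 the GGGCGG matches overlap in pairs. Over 32851 windows of the same length, 33% held CCAAT, 31.3% held GGGCGG and 12.1% held TATAAA on either strand. AGGTCA, a core bound by nuclear receptors, was found once in Cat and in 13.5% of all windows. TGACNNNGC, the core of the antioxidant response element, was found once in Sod1 and in 9.7% of all windows. GTAAACA, a core bound by FOXO factors, was not in these 3 windows and was in 3.1% of all. Matches of these letters describe the windows and do not show that a factor binds.

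Within each library, the 4 genes kept a single order. Sod1 was the highest, Cat the second, Sod2 the third and Sod3 the lowest in all 14 libraries. In the OC ovaries, Sod1 made up between 84.1% and 84.5% of the summed FPKM of the 4 genes, and in the OC uteruses between 77.2% and 79.3%. Their summed level was between 491.7 and 504.5 FPKM in the OC ovaries and between 215.2 and 240.7 FPKM in the OC uteruses. The control uterus thus had the lower summed level relative to the mapped fragments of its library.

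**Figure D1:**
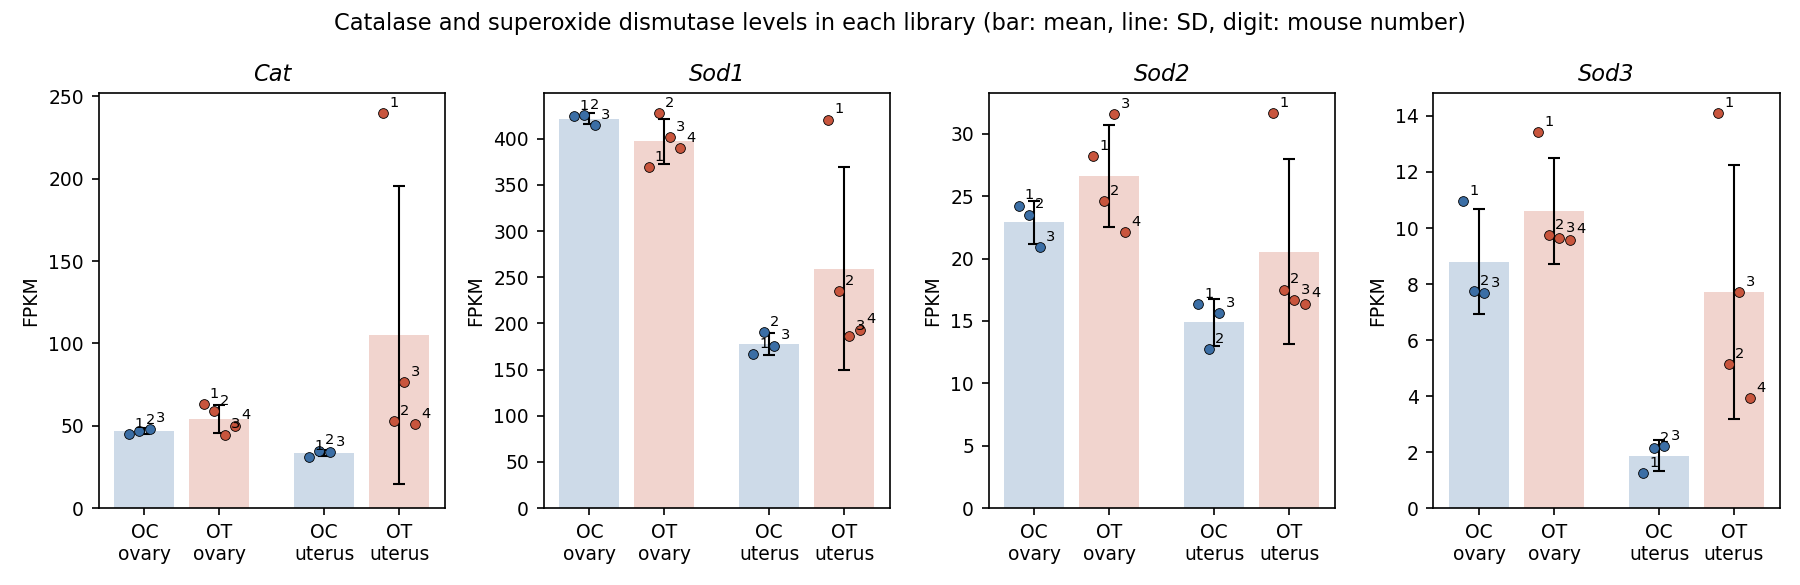
FPKM of Cat, Sod1, Sod2 and Sod3 (1 panel each, linear axis from 0) in the 4 groups, with a point for each library and the number of its mouse, a bar for the group mean and a line for the SD (n = 3 OC, n = 4 OT). In the uterus the OT1 library was the highest of all 7 for each gene, and every OT point for Sod3 lies above the OC points.

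Sod3, the secreted dismutase, showed the largest log2 fold change of the 4 genes between OC and OT uteruses, at the lowest level in FPKM. It was listed at 1.25, 2.15 and 2.23 FPKM in the OC1, OC2 and OC3 uteruses and at 14.1, 5.15, 7.71 and 3.93 FPKM in the OT1, OT2, OT3 and OT4 uteruses. The groups did not overlap, and the lowest OT uterus (OT4) lay above the highest OC uterus (OC3). The mean was 1.88 ± 0.541 FPKM (SD, n = 3) for OC and 7.72 ± 4.53 FPKM (SD, n = 4) for OT. The log2 fold change was 1.86 (SE 0.43, 95% confidence interval 0.86 to 2.85, adjusted p = 0.412 by limma after Benjamini-Hochberg correction over 14151 genes, from an unadjusted p = 0.00256). It passed the cutoffs of the study, and the adjusted p depended on the fit. When all 14 libraries shared 1 estimate of the spread, the same fold change had an adjusted p of 0.0434 by limma, and 47 genes were under 0.05 in that fit of the uterus groups, against 0 when the uterus was fitted alone. The ovaries spread less, with an SE of 0.169 for Sod3 in the ovary against 0.432 in the uterus. The shared estimate can therefore make p too small for the uterus. Leaving out each library in turn moved the log2 fold change between 1.51 and 2.12 and kept it past the cutoffs, with 1.51 without OT1.

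Cat was the other gene that passed these cutoffs in the uterus. It was listed at 31.2, 34.9 and 34.1 FPKM in the OC uteruses (OC1 to OC3) and at 239.8, 52.9, 76.4 and 51.0 FPKM in the OT uteruses (OT1 to OT4). Here too the groups did not overlap, but the OT1 library alone held more than 3 times the level of any other uterus. The log2 fold change was 1.33 (95% confidence interval 0.18 to 2.47, adjusted p = 0.564 by limma). Without OT1 it was 0.82 and under the fold cutoff, and leaving out OC1, OC2 or OC3 gave 1.28, 1.36 and 1.34 with an unadjusted p by limma of 0.0706, 0.0585 and 0.0606, above the p cutoff. The 2 genes passing as higher in the uterus are set against 2.23% of 14151 genes that did so (2.9% in either direction). Fitted alone, neither tissue had a gene with an adjusted p under 0.05 by limma, while 1160 genes (8.2%) in the uterus and 650 (4.51%) in the ovary had an unadjusted p under 0.05. In the fit of 14 libraries, which also takes in the smaller spread of the ovaries, Cat had an adjusted p of 0.153 by limma. Since bulk tissue was sequenced, more cells of a type that holds these transcripts and more transcript in each cell cannot be told apart.

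Sod1 and Sod2 did not pass in the uterus. Sod1, the cytosolic dismutase, was listed at 166.4, 190.8 and 175.9 FPKM in the OC uteruses and at 420.8, 235.3, 186.7 and 193.4 FPKM in the OT uteruses. The OT3 library lay inside the OC range and OT4 just above it. The log2 fold change was 0.46 (95% confidence interval -0.17 to 1.10, unadjusted p = 0.133 by limma), and 0.20 without OT1. Sod2, the mitochondrial enzyme, was listed at 16.3, 12.8 and 15.6 FPKM in the OC uteruses and at 31.6, 17.5, 16.7 and 16.4 FPKM in the OT uteruses. No OT library was below an OC library here, though OT4 and OC1 were nearly level at 16.39 and 16.32 FPKM. The log2 fold change of Sod2 was 0.41 (95% confidence interval -0.16 to 0.98, unadjusted p = 0.135 by limma), and 0.18 without OT1. Complete separation with OT above OC was therefore seen for Cat, Sod2 and Sod3, against 6.46% of all tested uterus genes.

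Exact two-sided permutation tests of the 8 gene and tissue combinations, on mean log2(FPKM + 0.1) over all 35 splits, gave p = 0.0571 for Cat, Sod2 and Sod3 in the uterus and p = 0.114 for Sod1. That is the smallest p that 3 against 4 libraries allow, and it became 0.152 after Benjamini-Hochberg adjustment over the 8 exact tests (0.229 for Sod1). The design therefore cannot reach 0.05 for a single gene by this test.

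In the ovary none of the 4 genes passed, with unadjusted p-values by limma from 0.116 to 0.264 and an adjusted p of 0.997 for each, where 0.451% of 14415 genes passed in either direction, 0.368% as higher and 0.0832% as lower. Sod1 was listed at 424.5, 425.7 and 414.8 FPKM in the OC ovaries and at 369.2, 427.7, 401.5 and 390.2 FPKM in the OT ovaries. Its log2 fold change of -0.09 had a 95% confidence interval from -0.26 to 0.08, the narrowest of the 4. Cat was listed at 44.9, 47.1 and 48.3 FPKM in the OC ovaries and at 63.4, 58.8, 44.7 and 50.2 FPKM in the OT ovaries, and OT3 was the lowest of all 7. Its interval ran from -0.06 to 0.47 around a log2 fold change of 0.20. Sod2 was listed at 24.2, 23.5 and 20.9 FPKM in the OC ovaries and at 28.2, 24.6, 31.5 and 22.1 FPKM in the OT ovaries, with a log2 fold change of 0.21 (interval -0.07 to 0.48). Sod3 was listed at 10.96, 7.74 and 7.68 FPKM in the OC ovaries and at 13.4, 9.75, 9.63 and 9.58 FPKM in the OT ovaries, with a log2 fold change of 0.27 (interval -0.11 to 0.66). The OC and OT ranges overlapped for each gene, and 2.78% of all tested ovary genes had every OT library above every OC library. Exact permutation p-values lay between 0.229 and 0.286. Every upper bound was below a fold change of 2. Single libraries moved these small values. Without OT1 the log2 fold change was 0.12 for Cat, 0.15 for Sod3 and -0.05 for Sod1, without OC1 it was 0.44 for Sod3, and without OT3 it was 0.12 for Sod2, none of which passed.

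**Figure D2:**
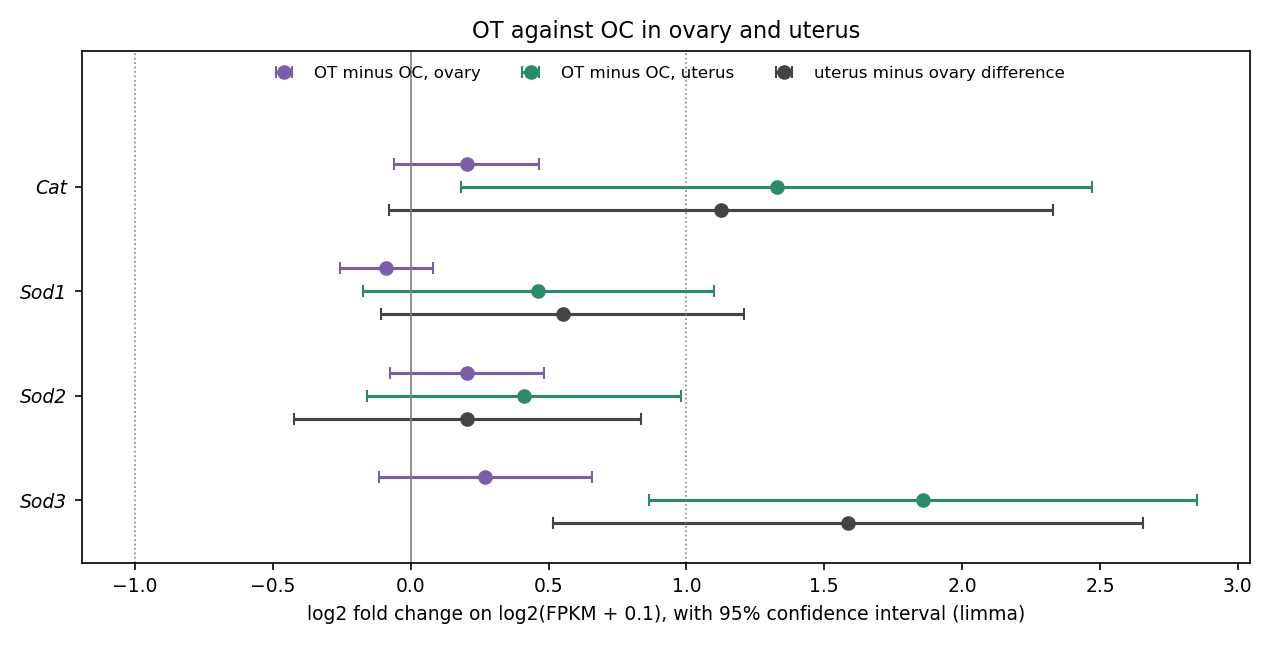
Log2 fold change of OT against OC on log2(FPKM + 0.1) for each gene in ovary (purple) and uterus (green), and the uterus value minus the ovary value (black), with 95% confidence intervals from limma. Dotted lines mark a fold change of 2 in either direction. The intervals of Cat and Sod3 in the uterus and that of the Sod3 difference between tissues lie above 0.

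Whether the OC and OT groups differed more in the uterus than in the ovary was tested with the 14 libraries in a single model. For Sod3 the log2 fold change was 1.59 larger in the uterus (SE 0.50, adjusted p = 0.844 by limma from an unadjusted p = 0.00689). For Cat the difference was 1.12 with an interval from -0.08 to 2.33, for Sod1 0.55 (interval -0.11 to 1.21) and for Sod2 0.21 (interval -0.42 to 0.83). No gene of 14557 tested had an adjusted p under 0.05 by limma for this difference (0% called), and 746 had an unadjusted p under 0.05 (5.12%). Leaving out each mouse in turn moved the Sod3 difference between 1.17 and 1.81, with 1.36 without OT1. Without OT1 the difference was 0.70 for Cat, 0.26 for Sod1 and 0.011 for Sod2, and that of Sod2 was also 0.078 without OC2 and 0.37 without OT3.

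The levels of the 2 organs were then compared. Sod1, Sod2 and Sod3 were lower in the uterus than in the ovary and Cat showed no called difference. The log2 level in the uterus minus that in the ovary was -1.40 for Sod3 (95% confidence interval -1.93 to -0.86, adjusted p = 0.000372 by limma). It was -0.97 for Sod1 (-1.30 to -0.64, adjusted p = 0.000131) and -0.52 for Sod2 (-0.83 to -0.20, adjusted p = 0.00888 with all mice and 0.0518 without OC2, by limma). For Cat the value was 0.08 (-0.52 to 0.68, adjusted p = 0.83), and without OT1 it was -0.13. An adjusted p under 0.05 by limma was reached by 52.9% of 14557 genes in this comparison, 26.8% as lower in the uterus. The exact sign-flip permutation test over the 7 mice gave p = 0.0312 for Sod1, Sod2 and Sod3 (adjusted p = 0.0417 over the 4 exact tests) and p = 0.734 for Cat, and the smallest p it allows is 0.0156.

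By mouse, the uterus held 39.2%, 44.8% and 42.4% of the ovarian Sod1 level in OC1, OC2 and OC3, and 55.0%, 46.5% and 49.6% in OT2, OT3 and OT4. In OT1 it held 114%. Sod3 had the widest spread. The uterus held 11.4%, 27.7% and 29.0% of the ovarian Sod3 level in the OC mice and 105%, 52.8%, 80.03% and 41.0% in OT1 to OT4. Sod2 ranged from 54.3% to 74.6% in the OC mice and from 52.9% to 112% in the OT mice. For Cat, the uterus held 69.6% to 74.2% of the ovarian level in the OC mice and 89.9% to 378% in the OT mice. OT1 was the 1 mouse of 7 whose uterus was above its ovary for Sod1, Sod2 and Sod3, whereas for Cat this was so in OT1, OT3 and OT4.

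**Figure D3:**
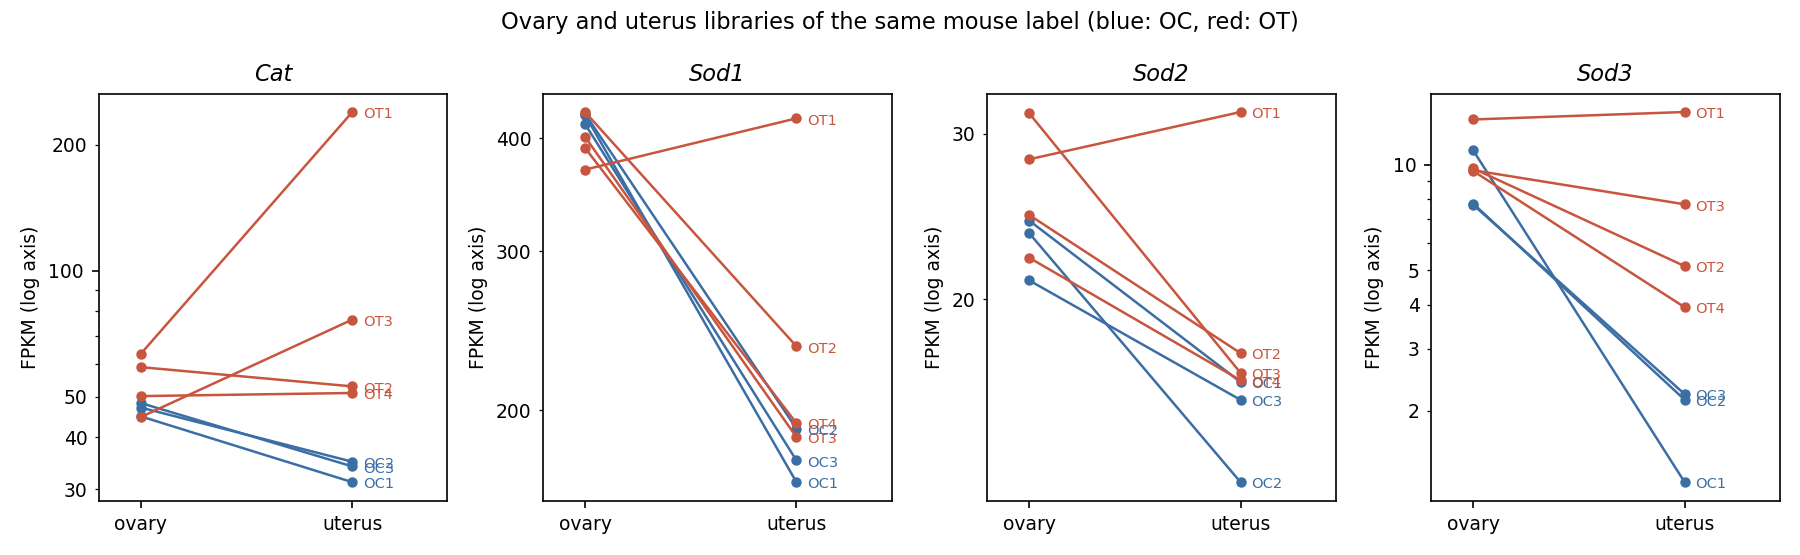
FPKM on a logarithmic axis in the ovary and the uterus of each mouse label, 1 line per mouse (blue for the 3 OC mice, red for the 4 OT mice). The lines of Sod1, Sod2 and Sod3 fall from ovary to uterus except in OT1, and those of Cat fall in the OC mice and in OT2.

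With the groups ordered by mean, Sod1 went from OC ovaries (421.6 ± 5.98 FPKM, SD, n = 3) through OT ovaries (397.2 ± 24.3 FPKM, n = 4) and OT uteruses (259.1 ± 109.96 FPKM, n = 4) to OC uteruses (177.7 ± 12.3 FPKM, n = 3), and the ranges of each neighbouring pair overlapped. Sod2 and Sod3 were both highest in OT ovaries, followed by OC ovaries, OT uteruses and OC uteruses, and only the last pair did not overlap. Cat ran from OT uteruses (105.0 ± 90.6 FPKM, n = 4) to OT ovaries (54.3 ± 8.40 FPKM, n = 4), OC ovaries (46.7 ± 1.73 FPKM, n = 3) and OC uteruses (33.4 ± 1.94 FPKM, n = 3). Again only the last pair was apart.

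Ratios between the genes do not depend on how a library is scaled. Cat reached 18.8%, 18.3% and 19.4% of the Sod1 level in the OC uteruses and 57.0%, 22.5%, 40.9% and 26.4% in the OT uteruses. This ratio was close to constant among OC uteruses and higher in each OT uterus. In the ovary it was 10.6%, 11.1% and 11.6% in the OC group and 17.2%, 13.8%, 11.1% and 12.9% in the OT group, where OT3 fell within the OC range. Sod3 reached 0.753%, 1.13% and 1.27% of the Sod1 level in the OC uteruses and 3.35%, 2.19%, 4.13% and 2.03% in the OT uteruses. For Sod3 the highest value belonged to OT3 and not to OT1. The ratio of Cat to Sod2 lay between 1.91 and 2.74 in the OC uteruses and between 3.02 and 7.58 in the OT uteruses. These 3 ratios were chosen after the values had been seen, and p by the exact permutation test (two-sided) was 0.0571 for each of them in the uterus and 0.114 to 1 in the ovary (adjusted p = 0.114 in the uterus over 6 exact tests).

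Markers of other cell types moved along with the uterus results. Of 10 adipocyte genes that the study also lists among its shared genes, 10 passed the cutoffs as higher in the OT uteruses, so they were partly chosen on these same libraries. Of 15 adipocyte genes outside that list, 13 did so, against 2.23% of all tested uterus genes. None of the 15 was at 0 in any library. The summed level of the 15 genes was 150.7 to 177.4 FPKM in the OC uteruses, and 2291, 335.3, 614.3 and 372.1 FPKM in OT1 to OT4. Cat and Sod3 were in the same order over the OT uteruses for their highest libraries, OT1 and then OT3. Both were higher in OT2 than in OT4, the reverse of the adipocyte sum. With the mean log2 level of these 15 genes added to the model as a covariate, the log2 fold change in the uterus was -0.53 for Cat, -0.39 for Sod1, -0.29 for Sod2 and 0.44 for Sod3, and none passed (unadjusted p = 0.0405, 0.203, 0.347 and 0.301 by limma). The covariate itself was higher in every OT uterus than in every OC uterus, so the 2 terms cannot be told apart in this design. Pparg, the nuclear receptor that drives adipocyte differentiation and 1 of these 15 genes, was 3.71 FPKM on average in the OC uteruses and 28.2 FPKM in the OT uteruses (log2 fold change 2.403, adjusted p = 0.485 by limma).

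Other marker lists differed too. All 7 squamous epithelium genes passed as higher in the OT uteruses, against 2.23% of all tested genes. Their summed level was 2.60 to 12.4 FPKM in the OC group and 44.8 to 797.9 FPKM in the OT group. The 6 red blood cell genes, whose cells are rich in catalase and SOD1, summed to 136.9 to 283.9 FPKM in the OC uteruses and 178.6 to 1233 FPKM in the OT uteruses, highest in OT1. Ucp1, the uncoupling protein of brown adipocytes, was listed at 209.9 FPKM in the OT1 uterus, at 0.112 FPKM in OT3 and at 0 in the other 5. No gene of the smooth muscle (8) or macrophage (6) lists passed (4 and 1 of them had an unadjusted p under 0.05 by limma), and 4 of the smooth muscle genes had every OT uterus above every OC uterus, against 6.46% of all tested genes. In the 8 uterine markers, 4 had every OT library below every OC library, against 5.48% of all tested genes, and none passed (3 with an unadjusted p under 0.05). In the ovary, 6 of the first 10 adipocyte genes passed as higher, against 0.368% of all tested ovary genes. None of the other 15 adipocyte genes passed (5 of these had an unadjusted p under 0.05 by limma). The 15 genes summed to 358 to 389.1 FPKM in the OC group and to 588.9, 532.1, 378.9 and 370.1 FPKM in OT1 to OT4. OT1 and OT2 were also the ovaries with the highest Cat. Mrap, 1 of the 15 genes, averaged 152.5 FPKM in OC and 141.1 FPKM in OT ovaries, against 0.964 FPKM in OC uteruses. The sums of the 15 genes therefore do not compare the adipocyte content of ovary and uterus. Of the 6 macrophage genes none passed in the ovary, but 4 had an unadjusted p under 0.05 by limma, 3 had every OT ovary above every OC ovary (2.78% of all tested genes) and the median log2 fold change was 0.50. Red blood cell genes summed to 695 FPKM in the OT3 ovary, and to 175.7 to 281.1 FPKM in the others. The OT3 ovary held the highest Sod2 and the lowest Cat of the 7 ovaries, and its Sod1 lay between those of the others. The part of red blood cells, macrophages, smooth muscle, squamous epithelium and brown adipocytes in the results was not tested.

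**Figure D4:**
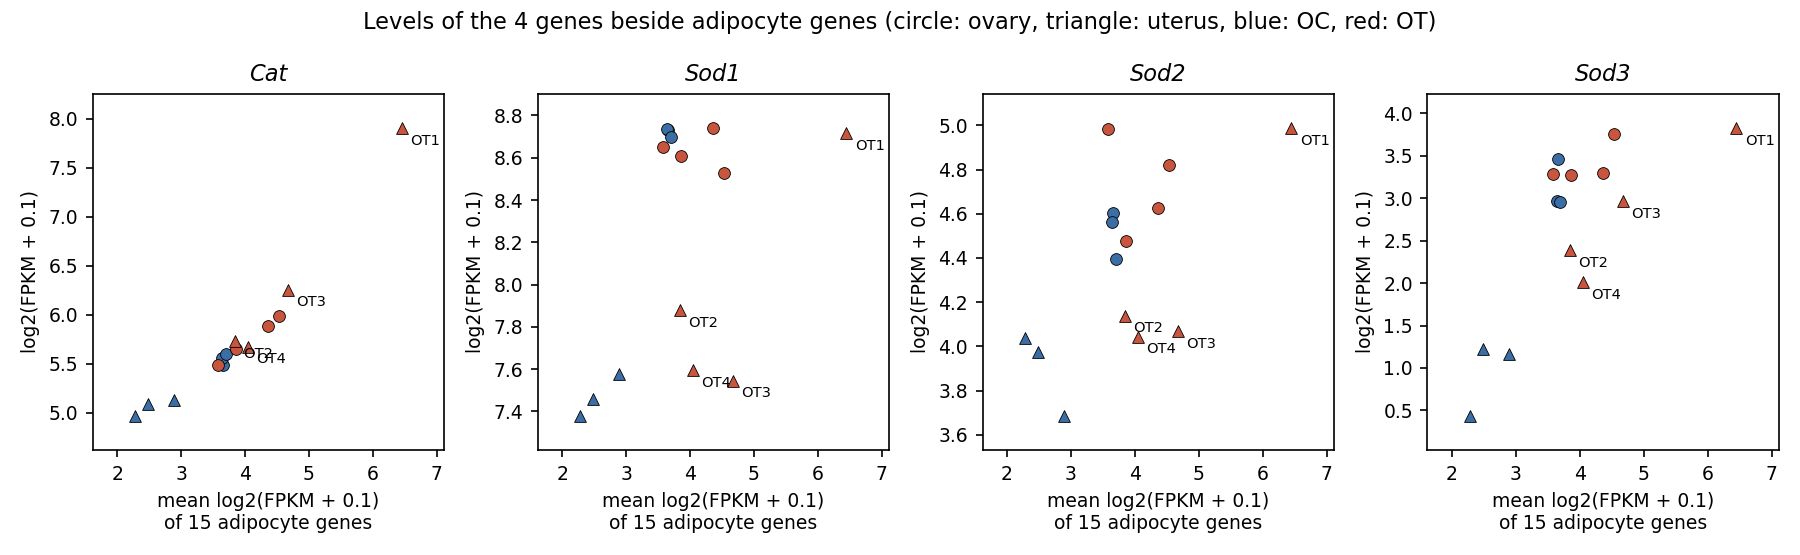
Log2(FPKM + 0.1) of each gene in the 14 libraries against the mean log2(FPKM + 0.1) of 15 adipocyte genes in the same library, with circles for ovaries, triangles for uteruses, blue for OC and red for OT. The OT1 uterus lies at the right edge of each panel, and for Sod1 it is the 1 uterus within the range of the ovaries. Mrap, 1 of the 15 genes, averaged 152.5 FPKM in OC ovaries and 0.964 FPKM in OC uteruses.

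Genes that serve these enzymes were described from lists of their known partners, and counts of genes under an unadjusted p of 0.05 by limma are given beside counts of 0. For copper and zinc delivery, which loads SOD1 and SOD3, none of 10 tested genes passed in either tissue (1 in the uterus and 0 in the ovary under 0.05). Ccs, the copper chaperone of SOD1, averaged 18.9 FPKM in OC and 22.2 FPKM in OT uteruses (log2 fold change 0.21, adjusted p = 0.685 by limma), and its ovarian levels were 28.5 and 29.7 FPKM. The median log2 fold change of this list was -0.13 in the uterus and -0.06 in the ovary, against 0.01 and -0.01 over all tested genes, and 2 of the 10 genes had every OT uterus below every OC uterus (5.48% of all). For peroxisome assembly, which forms the compartment of catalase, none of 18 genes passed in either tissue (1 and 0 under 0.05). The median of the list was 0.13 in the uterus, and 3 of the 18 genes had every OT library above every OC library, against 6.46% of all tested genes. These included Pex5, the import receptor that carries catalase into peroxisomes, with 15.8 FPKM in OC and 18.2 FPKM in OT uteruses (log2 fold change 0.19, adjusted p = 0.662 by limma).

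Of the oxidases that produce hydrogen peroxide or superoxide, 9 were tested in the uterus and 12 in the ovary. Only Maob, the mitochondrial monoamine oxidase B, passed. It was lower in the OT uteruses, as were 0.664% of all tested uterus genes by these cutoffs. The list median in the uterus was 0.02 (range -1.03 to 1.06), and 5 of the 9 genes were above 0. Of the 9, 1 had every OT uterus above every OC uterus (6.46% of all) and 1 every OT uterus below (5.48% of all). Maob was listed at 34.8, 31.8 and 28.5 FPKM in the OC and at 23.4, 11.9, 14.8 and 13.9 FPKM in the OT uteruses (log2 fold change -1.03, adjusted p = 0.396 by limma), and its groups did not overlap. None of the 12 ovarian genes passed or was under 0.05. Of 12 glutathione peroxidases and peroxiredoxins, the other enzymes that remove hydrogen peroxide, none passed or was under 0.05 in either tissue, with a median log2 fold change of 0.27 in the uterus and 0.02 in the ovary, and 3 of the 12 had every OT uterus above every OC uterus (6.46% of all). Of 14 transcription factors and regulators, Pparg alone passed, as higher in the uterus (2.23% of all tested genes), and it is also 1 of the 15 adipocyte genes above. Foxo1 and Foxo3, which can activate Cat and Sod2, were 27.1 and 46.8 FPKM in OC and 22.7 and 38.7 FPKM in OT uteruses (log2 fold changes -0.26 and -0.34, adjusted p = 0.692 and 0.687 by limma). Nfe2l2, the gene of NRF2, was 48.2 and 47.2 FPKM (log2 fold change -0.04). In the ovary the log2 fold changes of Foxo1, Foxo3 and Nfe2l2 were -0.06, -0.07 and 0.01.

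Between organs, Ccs and Pex5 were lower in the uterus, like the dismutases. The log2 level in the uterus minus that in the ovary was -0.51 for Ccs (adjusted p = 0.000664 by limma) and -0.76 for Pex5 (adjusted p = 1.66e-06 by limma). Of the 10 tested genes for copper and zinc delivery, 5 were lower and 1 higher in the uterus, and of the 18 peroxisome assembly genes, 7 were lower and 2 higher, against 26.8% lower and 26.1% higher over all genes.

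**Figure D5:**
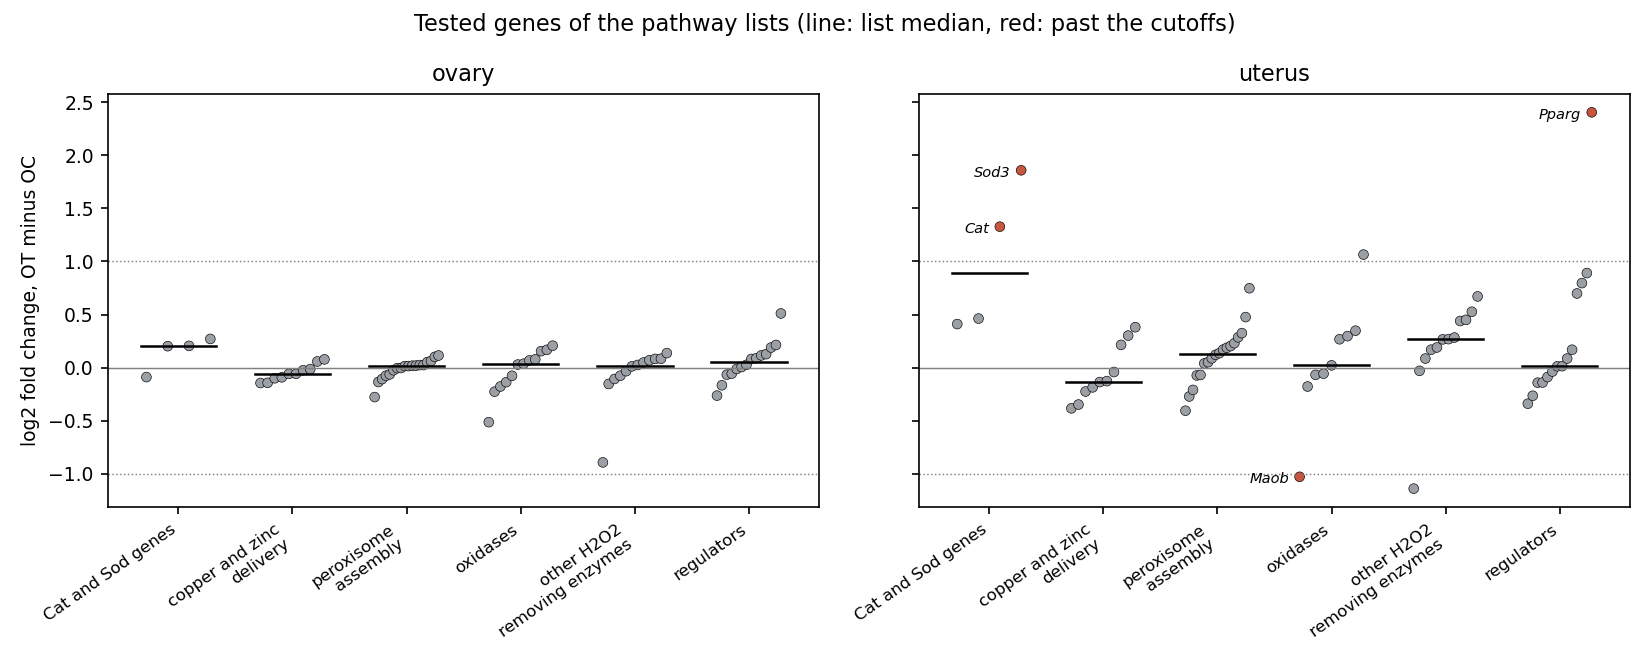
Log2 fold change of OT against OC for each tested gene of the pathway lists in ovary (left) and uterus (right), with a line at each list median, dotted lines at a fold change of 2 and red points for genes past the cutoffs. Red points appear in the uterus for Cat, Sod3, Maob and Pparg, and there are none in the ovary.

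The genes whose pattern was most like each enzyme were taken by Pearson's r over the 14 libraries after subtraction of each tissue's mean, among 12825 genes with at least 1 FPKM in each tissue. These r describe libraries that share the OT1 uterus and are given also without it. Group means were not subtracted, so the r also hold any difference between OC and OT. For Cat the most similar genes included Aifm2 (r = 0.985, and 0.952 without the OT1 uterus) and Dbi (0.985 and 0.943). For Sod3 they were Ces1f (0.962 and 0.931), Agt (0.961 and 0.933) and Eepd1 (0.96 and 0.938). For Sod1 they were Fech (0.977 and 0.915), Idh3b (0.97 and 0.805) and Echs1 (0.969 and 0.759), and for Sod2 Foxred1 (0.929 and 0.754), Glrx3 (0.924 and 0.724) and Mmachc (0.913 and 0.679). Among the 4 enzymes, Cat and Sod3 were the pair with the highest r (0.912, and 0.915 without the OT1 uterus). The other 5 pairs had r from 0.718 to 0.87 with the OT1 uterus and from -0.0037 to 0.427 without it.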

How the data were processed

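Total RNA depleted of rRNA was sequenced as stranded libraries from 14 tissue samples. The authors trimmed reads with Skewer 0.2.2, mapped them to mm10 with STAR 2.5 and estimated expression with Cufflinks 2.2.1, and the deposited values are FPKM per gene, 1 column per library. FPKM is scaled to mapped fragments, so the depth and its counting error are unknown here, and Cuffdiff, which needs the reads, was not run. Library composition can move FPKM, which is why 2 other scalings were tried. All 21853 identifiers matched GENCODE M21, which gave symbols and positions. Sod1 overlaps Scaf4 on the opposite strand, and the quantification was strand-specific.

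Groups and replicate numbers came from the labels. limma 3.58.1 (R 4.3.3, eBayes with trend) was run on log2(FPKM + 0.1) per tissue for genes averaging 0.5 FPKM or more there, and on all 14 libraries for the difference between tissues and the organ levels. p-values were adjusted over all tested genes. Simulated data with known changes were used to test the limma code. Exact tests used 2 times the smaller tail. Python 3.11.15, numpy 2.4.6, pandas 2.3.3 and matplotlib 3.10.9 were used for the rest. Promoter windows came from RefSeq (GRCm38.p6). The genes and lists were chosen with earlier results of these data known, and the promoter motifs after the sequences had been seen. Named besides the 4 enzymes were at most 3 called genes per list, Ccs, Pex5, Foxo1, Foxo3, Pparg and Nfe2l2, and the 3 most similar genes per enzyme. One of these similar genes is not reported here. Ucp1 and Hoxa10 were picked once their values were known. The alternatives were other pseudocounts, filters, scalings, moderation, a fit of all libraries, an adipocyte covariate, the replicate block and leaving out each replicate.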

Additional observations from a re-analysis of the deposited data

Results flagged for a closer look

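In each OT group of 4 libraries, the gap of the highest or lowest library to its nearest neighbour was compared with the range of the group. The gaps were taken on FPKM. On the log2 scale the gap of a high library takes a smaller part of the range, and this was not tested. The 8 gene and tissue combinations come from the same 4 mice and are not independent. Of these 8, 3 had a gap beyond the 95% critical value of Dixon's test, and all 3 were the OT1 library at the high end. Chance gives such a gap in about 1 of 20 independent groups of normally distributed values. In the uterus the flagged values were Cat at 239.8 FPKM (gap 0.865 of the range) and Sod2 at 31.6 FPKM (0.926 of the range). In the ovary it was Sod3 at 13.4 FPKM (0.957 of the range), where the other OT ovaries lay between 9.58 and 9.75 FPKM. Sod1 in the OT1 uterus, at 420.8 FPKM, had a gap of 0.792 of the range and stayed below that value.

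The difference between OC and OT was 1.59 larger in the uterus than in the ovary for Sod3 on the log2 scale (unadjusted p = 0.00689 and adjusted p = 0.844 by limma in the fit of 14 libraries). Every OT uterus lay above every OC uterus for Sod3, while OC1 was higher than 3 of the 4 OT ovaries.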

How the results depend on the processing

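With the adipocyte covariate the direction turned for Cat in the ovary (-0.014) and for Cat (-0.53), Sod1 (-0.39) and Sod2 (-0.29) in the uterus, and Sod3 in the uterus (0.44) no longer passed, while 27 genes passed as higher and 27 as lower in the ovary. Leaving out each library moved Cat in the uterus between 0.82 and 1.57, and without OT1, OC1, OC2 or OC3 it no longer passed. Leaving out each mouse moved the organ difference of Sod2 between -0.62 and -0.44, with an adjusted p of 0.0518 by limma without OC2, and that of Cat between -0.13 and 0.21. The other alternatives kept the direction and side of the threshold for each of the 4 genes. Over all genes, the ovary had 53 higher and 12 lower calls and the uterus 316 and 94. With a pseudocount of 1, ovary calls were 16 and 2 and uterus calls 202 and 57. Without a filter, ovary calls were 99 and 60 and lower uterus calls 152. With a filter of 2 FPKM, ovary calls were 25 and 0 and lower uterus calls 61. Leaving out each library gave 36 to 104 higher and 10 to 33 lower genes in the ovary and 243 to 416 and 52 to 189 in the uterus, with 104 and 33 without OT3 in the ovary. For the difference between tissues it gave 0 to 8 higher genes, with 8 without OT2. An OC and an OT library with the same number come from separate mice. Their deviations from the group means had correlations of 0.0219 to 0.335 in the ovary and -0.0112 to 0.0761 in the uterus. Pairs with other numbers had -0.393 to 0.263 in the ovary and -0.254 to 0.172 in the uterus. Whether OC and OT libraries share more than the number was not tested. With the replicate block, which left out OT4, lower calls were 35 for ovaries and 239 for uteruses, and no call of the 4 enzymes changed. Ovary and uterus of the same label had correlations of 0.074 to 0.158 in OC and 0.11 to 0.254 in OT mice. Ovary and uterus of different labels had -0.118 to 0.0601 in OC and -0.235 to 0.248 in OT mice, so that the ranges overlapped in OT. With the mouse label as a block no call of the 4 enzymes changed either. The cause of these shifts was not tested. Without known depth, levels near 0 such as those of Sod3 in the OC uteruses carry an unknown counting error.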
